A study of Mus musculus with 12 samples.

Results

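Phase II detoxification transferases were taken from the count table by gene symbol: the glutathione transferases of the alpha, kappa, mu, omega, pi, theta and zeta classes (*Gsta* to *Gstz*), the microsomal glutathione transferases (*Mgst*), the UDP-glycosyltransferases (*Ugt*) and the sulfotransferases (*Sult*). The rule used the symbol and a minimum count, not a difference between the groups. It gave 40 of the 21247 genes in the table, namely 22 glutathione transferases, 3 microsomal transferases, 7 UDP-glycosyltransferases and 8 sulfotransferases, and all 40 had the required minimum of 10 counts summed over 8 libraries. Of these, 39 are enzyme genes and 1, *Gstm2-ps1*, is annotated as a pseudogene. No gene of the *Ugt2* group or of *Sult7* was listed in the table.

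The libraries came from RNA-seq of periocular skin, the skin around the eye, of 6-week-old mice on a BALB/c background, and asked what loss of MyD88 changes in filaggrin-deficient skin. The 4 libraries labelled ft/ft came from mice homozygous for a point mutation that arose in *Flg* and disables filaggrin, which binds keratin in the cornified layer, and per the study the *ma* mutation, which often travels with it, had been bred out. The 4 libraries labelled ft/ftMyD88-/- came from mice that carry the same *Flg* mutation and also lack MyD88, the adaptor of toll-like and IL-1 family receptors. Samples of WT skin, 4 in the labels, were not used here. Both groups thus share the filaggrin mutation, and no value is set against normal skin. The study reports spontaneous periocular inflammation, a thicker epidermis and larger sebaceous glands in ft/ftMyD88-/- mice. It saw no visible inflammation in ft/ft mice. By that account inflamed skin is set here against skin without visible inflammation. The part of inflammation in the values below was not tested.

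Total counts were 15802957 to 29255129 per library. The labels were checked against transcripts before any transferase was compared. The level of *Myd88* in CPM, which scales each library's counts to a common size, was 30.7 ± 4.74 (SD, n = 4) for ft/ft and 41.2 ± 7.29 for ft/ftMyD88-/-. In the libraries labelled MyD88-deficient it was thus not lower but called higher, with groups that overlapped (log2 fold change 0.42, SE 0.142, edgeR adjusted p = 0.0484). Which exons the deficient allele lacks is not given in the sources used here, and a count per gene cannot show it. *Tmem79*, the gene that carries the *ma* mutation, was at 59.2 ± 2.92 CPM for ft/ft and 16.4 ± 2.10 for ft/ftMyD88-/-, 3.62-fold lower (edgeR adjusted p = 5.08e-07), and its part in the values below was not tested. The Y-linked *Ddx3y* averaged 65.0 ± 8.97 CPM for ft/ft but 0.147 ± 0.225 for ft/ftMyD88-/-, whereas *Xist*, the RNA of the inactive X chromosome, averaged 0.0107 ± 0.0214 and 49.4 ± 13.3 CPM. The study describes female mice, whereas the libraries labelled ft/ft carried male transcripts and those labelled ft/ftMyD88-/- female ones. Genotype and sex therefore cannot be told apart in any comparison given here, and groups are named by their labels only. Neither can be told apart from the inflammation described above.

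Phase II enzymes join a reactive or fat-soluble compound to a water-soluble group, which makes it easier to excrete. Glutathione transferases use glutathione, UDP-glycosyltransferases mostly use glucuronic acid carried on UDP, and sulfotransferases use the sulfate donor PAPS, after which ABC transporters pump the conjugates out of the cell. In skin these enzymes handle applied chemicals, products of lipid peroxidation, steroids and bilirubin, and they are made by the epidermis and its glands as well as by other tissue.

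Of the 40 transferases, 20 (50%) differed between the groups at an edgeR adjusted p under 0.05, compared with 23.3% of the 20454 genes tested. Lower levels in ft/ftMyD88-/- made up most of this: 16 members (40%) were lower, where 12.3% of all genes were, and 4 members (10%) were higher, close to the 10.9% of all genes. The 16 lower members were *Gsta1*, *Gsta2*, *Gsta3*, *Gsta4*, *Gstk1*, *Gstm1*, *Gstm4*, *Gstm7*, *Gsto1*, *Gstp1*, *Gstp2*, *Gstt3*, *Mgst1*, *Sult1e1*, *Sult5a1* and *Ugt1a1*, and the 4 higher ones were *Gstm2*, *Mgst2*, *Sult3a2* and *Sult4a1*. By family, 12 of 22 glutathione transferases were lower and 1 was higher, 1 of 3 microsomal transferases went each way, 1 of 7 UDP-glycosyltransferases was lower, and 2 of 8 sulfotransferases were lower and 2 were higher. The median log2 fold change (ft/ftMyD88-/- over ft/ft) was -0.36 over the members and 0.01 over all genes tested, and 28 members (70%) had a value below 0 compared with 49% of all genes. Called with a log2 fold change of 1 or more in either direction were 9 members and 6.22% of all genes. By family the median was -0.63 for the glutathione transferases, 0.22 for the microsomal ones, -0.01 for the UDP-glycosyltransferases and -0.06 for the sulfotransferases.

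The libraries of ft/ft and ft/ftMyD88-/- did not overlap at all for 20 members, 15 lower and 5 higher, and for 26.7% of all genes, 14.2% lower and 12.5% higher. For any gene without overlap the two-sided exact permutation test over the 8 libraries gives p = 0.0286, the smallest that 4 against 4 libraries allow. That value follows from the separation itself and adds no support to it. Whole skin was measured, so fewer cells of a type and less RNA per cell cannot be told apart for any of these genes.

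**Figure D1:**
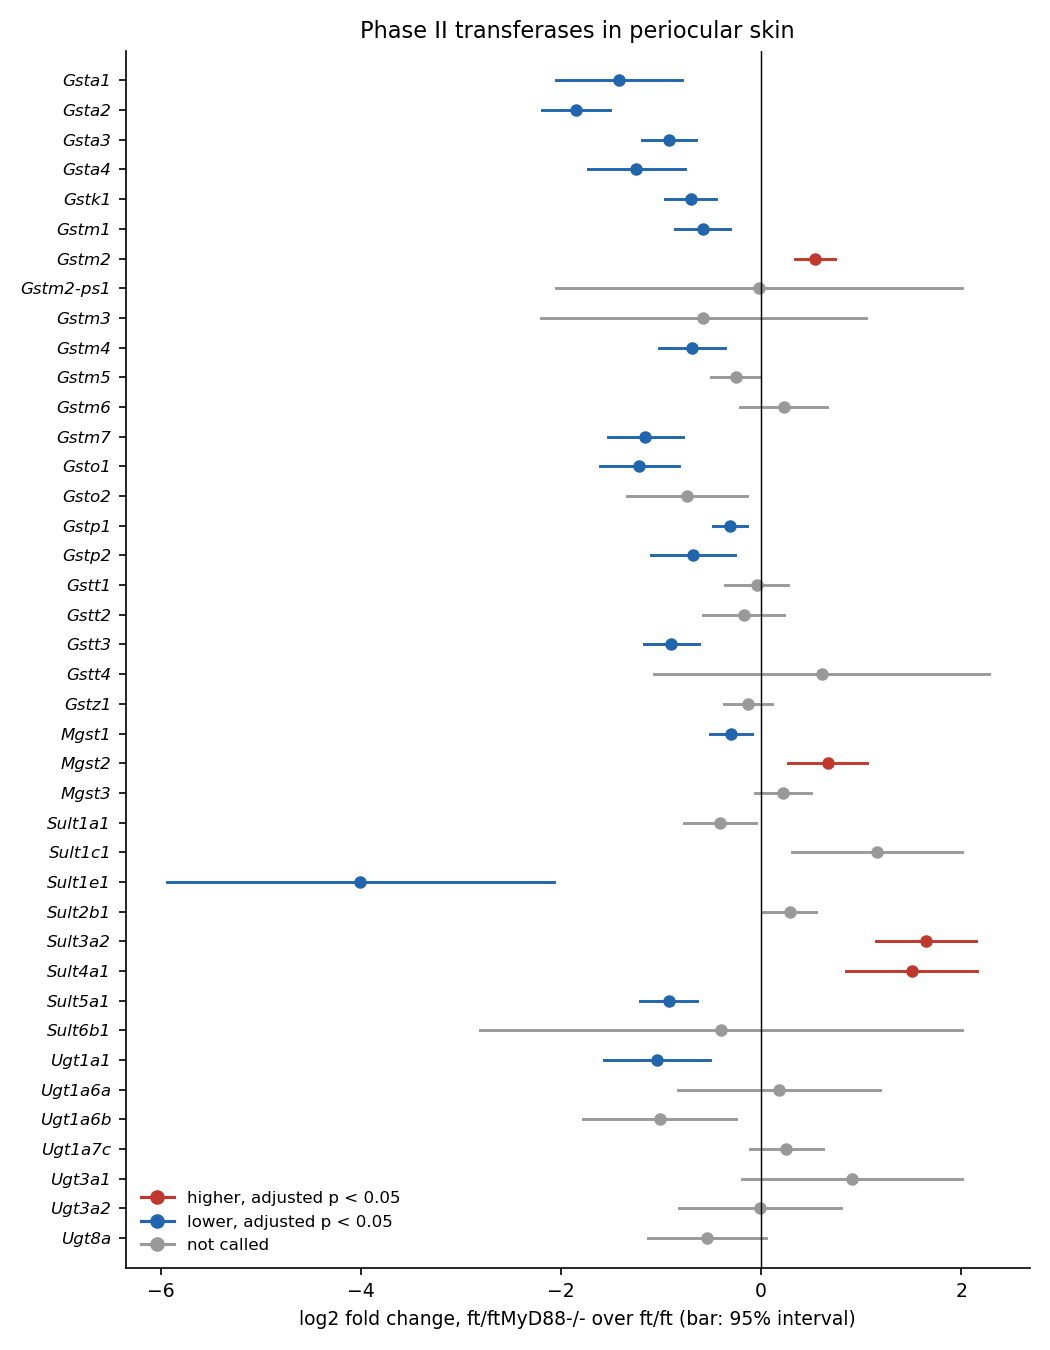
Fitted log2 fold change of each of the 40 transferases, ft/ftMyD88-/- over ft/ft (x axis), with its 95% interval as a bar, from edgeR on 4 libraries a group. Blue marks the 16 lower members, red the 4 higher and grey the 20 not called; the value of *Sult1e1* rests on 2 counts in ft/ftMyD88-/- and is not a bound, and *Gstm2-ps1* was at or under 3 counts in every library.

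Markers of other cell types moved with the groups too. For the marker counts in this paragraph, 12.3% of all genes tested were lower and 10.9% higher. Of 15 sebocyte markers 9 were lower and 1 higher in ft/ftMyD88-/-, with a summed level of 27504 to 30581 CPM in ft/ft and 18043 to 24558 in ft/ftMyD88-/-. Of 8 basal keratinocyte markers 6 were lower (14544 to 17751 and 10119 to 12356 CPM), and of 14 skeletal muscle markers 13 were lower (11475 to 15423 and 4305 to 8238 CPM). The 10 markers of differentiated keratinocytes held 4 lower and 2 higher (16879 to 22096 and 12541 to 15644 CPM). Those of hyperproliferative keratinocytes held 1 higher and 0 lower of 8, and their sums overlapped (2801.2 to 3875.4 and 3688.5 to 6636.7 CPM). The fibroblast markers summed to 14410 to 29641 CPM in ft/ft and 7469 to 11084 in ft/ftMyD88-/-, with 3 of 8 lower and 1 higher. Of 8 T cell markers 7 were higher and 1 lower, and they summed to 31.9 to 39.4 and 39.4 to 47.9 CPM. Of 9 macrophage and monocyte markers 3 were higher (567 to 731 and 787 to 1102 CPM). Of 6 neutrophil markers 1 was higher (21.7 to 250 and 399 to 959 CPM), while *S100a8* and *S100a9*, also markers of hyperproliferative keratinocytes, were not called. Of 10 adipocyte markers 0 were called. Markers of anagen hair follicles summed to 1946 to 2797 and 2491 to 16844 CPM, with 2 of 11 higher. The hepatocyte markers summed to 122 to 221 and 129 to 240 CPM, nearly all of it from *Hp*, haptoglobin (167 ± 50.8 and 159 ± 53.0 CPM), while *Alb*, serum albumin, was at 1.48 ± 0.930 and 0.592 ± 0.305 CPM and *Apoa1*, *Apob* and *Fga* were under the count minimum. The part of these shifts in the transferase values was not tested.

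To set genes side by side, CPM was divided by the kilobases of exon that belong to no other gene. Reads that fit several similar genes were not corrected for. Of the 50-base stretches of transcript, *Gstm1* shared 18.9% and *Gstp1* 46.0% with other genes. On that scale *Gsto1* had the highest level of all members in both groups. It was at 1404 ± 277 CPM per kb in ft/ft and 603 ± 129 in ft/ftMyD88-/-. In ft/ft it was followed by *Gsta4* (391.6 ± 87.3), *Mgst1* (242 ± 18.4) and then by *Gstm1* (107.5 ± 9.43) and *Gstp1* (104 ± 4.18), whose libraries overlapped each other, and *Mgst3* (80.95 ± 6.13). In ft/ftMyD88-/- *Gsto1* was followed by *Mgst1* (196 ± 17.5) and *Gsta4* (165 ± 41.7), which overlapped each other. The lowest *Gsta4* library (104.2) was also under the highest *Mgst3* library (122.4). Next came *Mgst3* (94.4 ± 19.8), *Gstm2* (83.5 ± 7.63), *Gstp1* (83.5 ± 4.78) and *Gstm1* (71.7 ± 13.9), which could not be ranked beyond their spread.

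**Figure D2:**
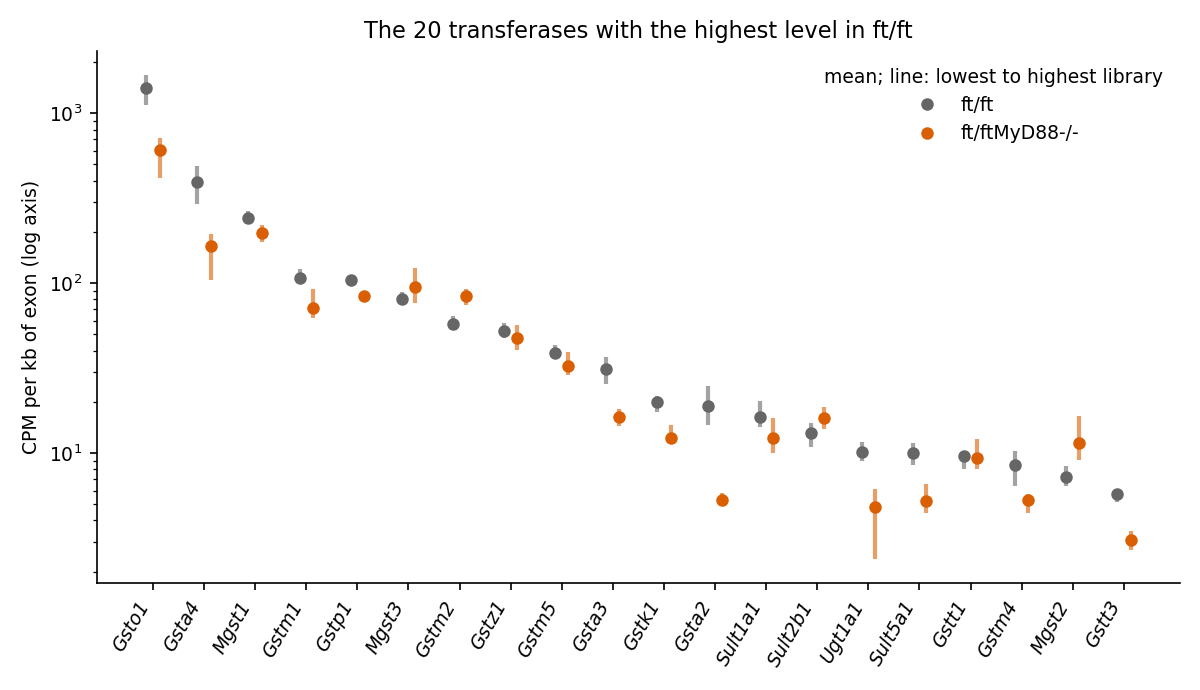
Level of the 20 transferases with the highest mean in ft/ft, ordered by it, as CPM per kilobase of exon that belongs to no other gene. The log axis shows the mean of 4 libraries (points) and the lowest to highest library (lines). *Gsto1* leads in both groups, at 1404 in ft/ft and 603 in ft/ftMyD88-/-, and *Gsta2* shows a wide gap, from 19.0 to 5.25.

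Because *Gsto1* was so abundant, it set much of the summed level of the family. The 40 members summed to 3072 to 3970 CPM in ft/ft and 1842 to 2264 CPM in ft/ftMyD88-/-, and the groups did not overlap. *Gsto1* made up 44.7% to 52.2% of that sum in ft/ft and 27.9% to 38.9% in ft/ftMyD88-/-. Together *Gsto1*, *Gsta4* and *Mgst1* gave 73.0% to 79.2% and 56.5% to 69.1%. Calls were not limited to abundant genes, since of 19 members with a mean of at least 10 CPM in either group 11 were lower and 2 higher, and of 31 members with at least 1 CPM 15 were lower and 4 higher. Among the 9 members under 1 CPM in both groups only *Sult1e1* was called. The share of all genes called at these levels was not computed, so these counts have no matched background. Over the 16280 genes left by the stricter count filter of edgeR, filterByExpr, 15.4% were lower and 14.2% higher.

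Promoter sequences from RefSeq (build GRCm38.p6, 250 bases before to 50 after the start) were found for 34 of the 40 members, 44 promoters in all, and are printed below for the members that lead the results or hold a particular motif. Both strands were searched for the antioxidant response element, the site of NRF2, written TGACNNNGC, and for the core of the xenobiotic response element, the site of the aryl hydrocarbon receptor, written GCGTG. The first was in 4 of the 44 promoters and in 12.4% of all 32851 promoters, and the second in 10 of the 44 and in 32.4% of all. An AP-1 site, written TGANTCA, was in 7 of the 44 (7.81% of all), and the direct-repeat PPAR element was in 0 of the 44 (0.0396% of all). The antioxidant response element was found in *Gsta3*, *Gstm7* and *Mgst1*, all lower, and in *Gstm5*, not called. In the sequences, which end before the gene and any annotated exon of it or are cut to 30 bases around a match, capitals mark matches to these first 2 motifs, on either strand. A match describes the letters of the window and is not a bound site.

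The omega class is known for reducing dehydroascorbate and methylated arsenic, and *Gsto1* (chromosome 19, 47854973 to 47864790) carried the largest drop in CPM of any member. It was at 1980, 2073, 1522 and 1373 CPM in the 4 ft/ft libraries and at 792, 879, 515 and 800 CPM in the ft/ftMyD88-/- libraries. Every ft/ft library was above every ft/ftMyD88-/- library, and the third ft/ftMyD88-/- library was lowest of all. The log2 fold change was -1.22 (SE 0.180, edgeR adjusted p = 0.000909), a level 2.33-fold lower. *Gsto2*, which starts within a kilobase after the end of *Gsto1* on the same chromosome, was at 1.36 ± 0.201 and 0.820 ± 0.260 CPM and was not called (adjusted p = 0.0708). The promoter of *Gsto1*, shown because this gene led the family in level, held no match to either motif.
Gsto1 promoter, chr19:47854723-47854969, plus strand: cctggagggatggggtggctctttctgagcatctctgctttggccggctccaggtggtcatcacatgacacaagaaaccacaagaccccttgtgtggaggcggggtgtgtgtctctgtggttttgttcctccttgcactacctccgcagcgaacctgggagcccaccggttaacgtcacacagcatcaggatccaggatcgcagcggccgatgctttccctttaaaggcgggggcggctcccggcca

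All 4 alpha-class genes were lower in ft/ftMyD88-/-, and summed they went from 573 ± 120 CPM to 243 ± 51.8. Alpha-class enzymes conjugate aldehydes and hydroperoxides that arise from oxidised lipid. *Gsta4* (chromosome 9, 78191966 to 78209349), which acts on hydroxynonenal, was at 544, 622, 449 and 368 CPM in ft/ft and at 217, 246, 132 and 240 CPM in ft/ftMyD88-/-. The groups were well apart, and the third ft/ftMyD88-/- library was again the lowest. The log2 fold change was -1.25 (SE 0.217, adjusted p = 0.00341). The ratio of *Gsto1* to *Gsta4*, chosen after the values were seen, overlapped between the groups and was 3.33 to 3.73 in ft/ft and 3.33 to 3.90 in ft/ftMyD88-/-.

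*Gsta2* had the smallest adjusted p of all 40 members. Its CPM was 29.1, 22.2, 17.1 and 20.9 in ft/ft and 5.92, 6.80, 6.16 and 5.85 in ft/ftMyD88-/-. The ft/ftMyD88-/- libraries were close to one another and far under every ft/ft library, with a log2 fold change of -1.85 (SE 0.155, edgeR adjusted p = 2.28e-05), 3.61-fold lower. *Gsta1*, its close copy, was low throughout, at 2.83, 1.78, 2.18 and 2.22 CPM in ft/ft and 0.657, 0.992, 0.510 and 1.28 in ft/ftMyD88-/-. The groups did not overlap there either (-1.42, SE 0.289, adjusted p = 0.00461). *Gsta1* shared 89.7% of its 50-base stretches of transcript with other genes, mainly the predicted gene *Gm3776*, and *Gsta2* shared 49.8%, mainly with *Gsta1*, so reads that fit several copies may have been dropped or split and the split between these genes is uncertain. With the alpha genes summed into 1 row before the fit the log2 fold change was -1.23 (SE 0.186, adjusted p = 0.00126).

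*Gsta3*, which conjugates epoxides such as that of aflatoxin and lies on chromosome 1 apart from the other alpha genes, shared no 50-base stretch with another gene. It was at 62.2, 58.0, 43.2 and 46.1 CPM in ft/ft and 24.4, 29.4, 30.5 and 26.4 in ft/ftMyD88-/-. All 4 ft/ft libraries were higher (-0.92, SE 0.126, edgeR adjusted p = 0.000503). Its promoter is shown because it holds an antioxidant response element, which starts 121 bases before the transcription start.
Gsta3 promoter, chr1:21240335-21240564, plus strand: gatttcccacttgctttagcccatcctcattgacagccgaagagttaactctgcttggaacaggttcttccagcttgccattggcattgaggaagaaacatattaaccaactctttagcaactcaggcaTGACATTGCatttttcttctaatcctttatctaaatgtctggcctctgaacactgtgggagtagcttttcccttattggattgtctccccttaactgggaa

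The mu class, whose enzymes act on small electrophiles such as epoxides, did not move one way. Of 8 rows *Gstm1*, *Gstm4* and *Gstm7* were lower, *Gstm2* was higher, and *Gstm3*, *Gstm5*, *Gstm6* and *Gstm2-ps1* were not called. The summed level of the class was 291 ± 17.9 CPM in ft/ft and 256 ± 33.6 in ft/ftMyD88-/-, a difference that did not pass the test when the rows were summed before the fit (log2 fold change -0.19, SE 0.103, edgeR adjusted p = 0.204). A view of the class as a whole thus hid changes in both directions among its genes. The functional mu genes lie side by side on chromosome 3.

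*Gstm1* (chromosome 3, 108012250 to 108017973) was at 148, 160, 177 and 149 CPM in ft/ft and 91.8, 100, 136 and 94.7 CPM in ft/ftMyD88-/-. The third ft/ftMyD88-/- library stood closest to ft/ft, though still under it (-0.59, SE 0.125, adjusted p = 0.00585). Its neighbour *Gstm2* (107981702 to 107986420) was at 67.5, 65.8, 76.6 and 64.8 CPM in ft/ft and 88.0, 100.2, 110 and 99.8 CPM in ft/ftMyD88-/-. Here every ft/ftMyD88-/- library was above every ft/ft library (0.54, SE 0.0927, adjusted p = 0.00185). The ratio of *Gstm2* to *Gstm1*, also chosen after the values were seen, was 0.411 to 0.457 in ft/ft and 0.812 to 1.05 in ft/ftMyD88-/-, a separation that the opposite calls of the genes fix. *Gstm1* shared 18.9% and *Gstm2* 8.30% of their 50-base stretches with other genes.

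*Gstm7* was at 3.86, 3.49, 3.68 and 4.10 CPM in ft/ft and 1.88, 1.58, 1.46 and 1.89 in ft/ftMyD88-/-, and *Gstm4* was at 17.4, 10.9, 13.7 and 15.7 CPM and at 7.58, 9.33, 9.73 and 9.15 CPM. Both sets of libraries were fully apart. The log2 fold change was -1.16 for *Gstm7* (SE 0.173, edgeR adjusted p = 0.000820) and -0.69 for *Gstm4* (SE 0.151, adjusted p = 0.00664). *Gstm5*, at 42.6 ± 3.62 and 35.7 ± 5.46 CPM, overlapped between the groups (adjusted p = 0.123), as did *Gstm6*, at 3.33 ± 0.597 and 3.91 ± 0.876 CPM (adjusted p = 0.455). *Gstm3* was at 0.135 ± 0.126 and 0.0963 ± 0.0207 CPM, near the floor of counting. *Gstm2-ps1* had at most 3 counts in every library, so no fold is given for it.

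Promoters of 4 mu genes are shown to set the 2 neighbours with opposite calls, *Gstm1* and *Gstm2*, beside the 2 that hold an antioxidant response element, *Gstm5* and *Gstm7*. *Gstm1* held 1 xenobiotic response element core and *Gstm2* no match to either motif. In *Gstm5* the antioxidant response element starts 42 bases before the transcription start and overlaps a xenobiotic response element core read on the other strand (CACGC), and a further core lies upstream. In *Gstm7* the match starts 129 bases before the downstream of 2 annotated starts and lies inside the gene, and the promoter of the upstream start held no match to either motif.
Gstm1 promoter, chr3:108017974-108018223, minus strand: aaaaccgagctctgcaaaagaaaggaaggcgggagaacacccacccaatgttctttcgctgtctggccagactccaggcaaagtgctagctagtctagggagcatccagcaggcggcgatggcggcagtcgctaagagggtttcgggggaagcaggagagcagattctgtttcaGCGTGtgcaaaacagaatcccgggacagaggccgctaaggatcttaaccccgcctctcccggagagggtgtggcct
Gstm2 promoter, chr3:107986454-107986670, minus strand: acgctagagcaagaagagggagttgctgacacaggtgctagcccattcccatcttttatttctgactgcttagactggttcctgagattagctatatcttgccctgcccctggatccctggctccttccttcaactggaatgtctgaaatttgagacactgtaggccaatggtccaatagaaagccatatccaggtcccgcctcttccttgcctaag
Gstm5 promoter, chr3:107895604-107895820, plus strand: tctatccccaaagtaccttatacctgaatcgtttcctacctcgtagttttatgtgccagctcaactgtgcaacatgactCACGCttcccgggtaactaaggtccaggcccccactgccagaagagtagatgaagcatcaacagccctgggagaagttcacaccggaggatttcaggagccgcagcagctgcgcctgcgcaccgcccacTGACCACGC
Gstm7 promoter, chr3:107931724-107931753, minus strand: tctgaagaccTGACAAAGCgaagccaatcc

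**Figure D3:**
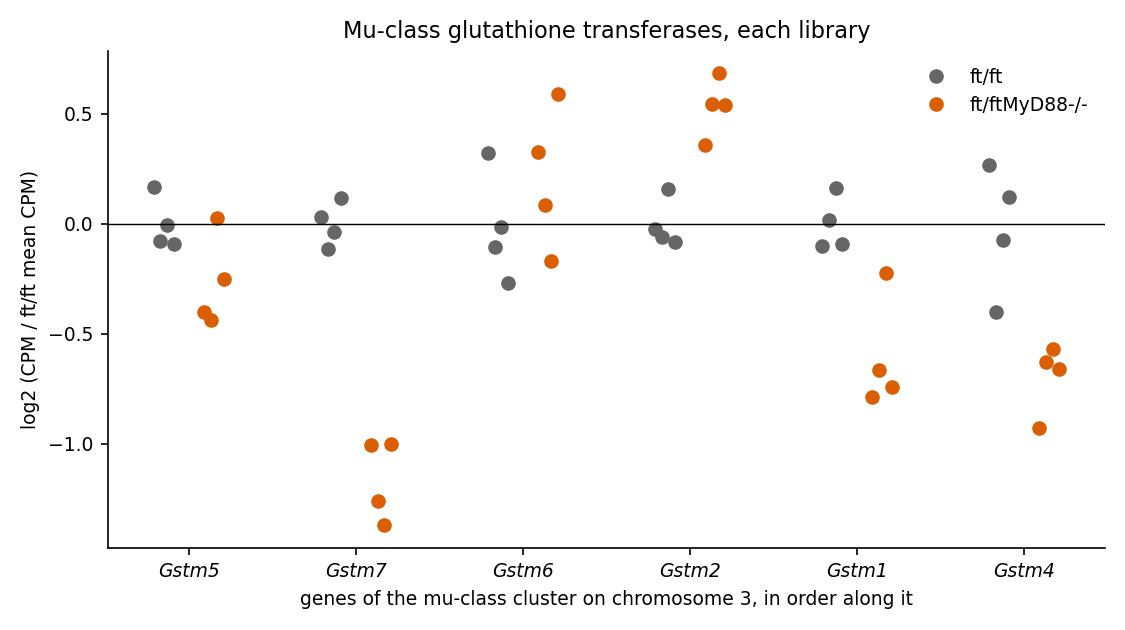
Mu-class genes in their order along chromosome 3 (x axis) with log2 of CPM over the ft/ft mean of the gene (y axis), with a point for each library (*Gstm3*, near the floor of counting, is left out). The ft/ftMyD88-/- libraries (orange) lie under all ft/ft libraries (grey) for *Gstm7*, *Gstm1* and *Gstm4* and above them for *Gstm2*. The groups overlap for *Gstm5* and *Gstm6*. For *Gstm5* only ft/ftMyD88-/- replicate 3 lies among the ft/ft libraries, and the others of its group lie under them.

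The pi class also inhibits the stress kinase JNK, and both of its genes were lower. *Gstp1* (chromosome 19, 4035411 to 4037912) was at 109, 99.9, 105 and 101 CPM in ft/ft and 78.6, 82.1, 83.3 and 90.0 in ft/ftMyD88-/-. The groups were apart but close (-0.31, SE 0.0782, edgeR adjusted p = 0.0129). *Gstp2* was far lower in level, at 3.60, 5.27, 4.57 and 5.44 CPM and at 2.28, 2.90, 3.64 and 2.93 CPM, and the highest ft/ftMyD88-/- library lay above the lowest ft/ft library (-0.68, SE 0.194, adjusted p = 0.0241). The genes shared 46.0% and 50.4% of their 50-base stretches, and summed into 1 row they had a log2 fold change of -0.33 (SE 0.0774, adjusted p = 0.00980). Scaling by library size alone ended both calls (adjusted p = 0.188 for *Gstp1* and 0.0775 for *Gstp2*), and *Gstp2* was also lost without ft/ft replicate 2 or 4 or ft/ftMyD88-/- replicate 1, 2 or 4 (adjusted p = 0.0531 to 0.0769).

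Of the 4 theta-class genes, known for acting on halogenated compounds, *Gstt3* alone was called. It was at 12.4, 12.2, 12.8 and 10.8 CPM in ft/ft and 6.05, 6.84, 7.32 and 5.61 in ft/ftMyD88-/-, fully apart (-0.90, SE 0.126, edgeR adjusted p = 0.000580). *Gstt1*, its neighbour on chromosome 10 and the most abundant theta gene, was at 15.6, 12.3, 15.3 and 15.5 CPM and at 12.3, 13.3, 18.3 and 12.7 CPM. These values overlapped, with a log2 fold change of -0.04 (95% interval -0.36 to 0.27, adjusted p = 0.854). *Gstt2*, at 6.07 ± 0.937 and 5.38 ± 1.28 CPM (adjusted p = 0.541), and *Gstt4*, at 0.0791 ± 0.0578 and 0.140 ± 0.0897 CPM, were not called. Summed, the theta genes did not pass the test (-0.33, SE 0.115, adjusted p = 0.0578).

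*Gstk1*, a glutathione transferase of mitochondria and peroxisomes, was at 21.6, 17.5, 20.03 and 20.9 CPM in ft/ft and 11.6, 11.4, 14.6 and 11.5 in ft/ftMyD88-/-. Each ft/ft library was above each ft/ftMyD88-/- library (-0.70, SE 0.118, edgeR adjusted p = 0.00159). *Gstz1*, which isomerises maleylacetoacetate in the breakdown of tyrosine, was at 92.1, 79.1, 80.9 and 97.6 CPM and at 67.7, 80.1, 93.9 and 77.1 CPM. Its groups overlapped and it was not called (-0.13, 95% interval -0.37 to 0.11, adjusted p = 0.415).

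Microsomal glutathione transferases sit in membranes, and their 3 genes gave 3 outcomes. *Mgst1* (chromosome 6, 138140527 to 138156755), which protects the membranes of the endoplasmic reticulum and mitochondria from lipid peroxidation, was at 531, 447, 467 and 501 CPM in ft/ft and 353, 439, 395 and 392.0 in ft/ftMyD88-/-. The lowest ft/ft library was just above the highest ft/ftMyD88-/- library (-0.30, SE 0.0968, edgeR adjusted p = 0.0411). That call did not outlast small changes: it was lost with scaling by library size alone (-0.12, adjusted p = 0.360) and without ft/ft replicate 1, 3 or 4 or ft/ftMyD88-/- replicate 1, 3 or 4 (log2 fold change -0.32 to -0.25, adjusted p = 0.0681 to 0.110).

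*Mgst2*, which can also make cysteinyl leukotrienes, moved the opposite way. It was at 10.3, 8.47, 8.81 and 7.90 CPM in ft/ft and 12.4, 12.6, 11.2 and 20.4 in ft/ftMyD88-/-. All ft/ftMyD88-/- libraries were higher, the fourth by far (0.67, SE 0.182, edgeR adjusted p = 0.0201). Without ft/ft replicate 4 the adjusted p was 0.0621. *Mgst2* over *Mgst1*, a ratio chosen after the values were seen, was 0.0158 to 0.0195 in ft/ft and 0.0284 to 0.0522 in ft/ftMyD88-/-, as the opposite calls require. *Mgst3* was at 88.8 ± 6.72 and 104 ± 21.7 CPM and was not called (adjusted p = 0.244), but scaling by library size alone called it higher. A stretch of the *Mgst1* promoter is shown because it holds an antioxidant response element, on the other strand, 56 bases before the first of 2 annotated starts, and the promoter of the other start held none.
Mgst1 promoter, chr6:138140461-138140490, plus strand: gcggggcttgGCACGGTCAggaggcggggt

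**Figure D4:**
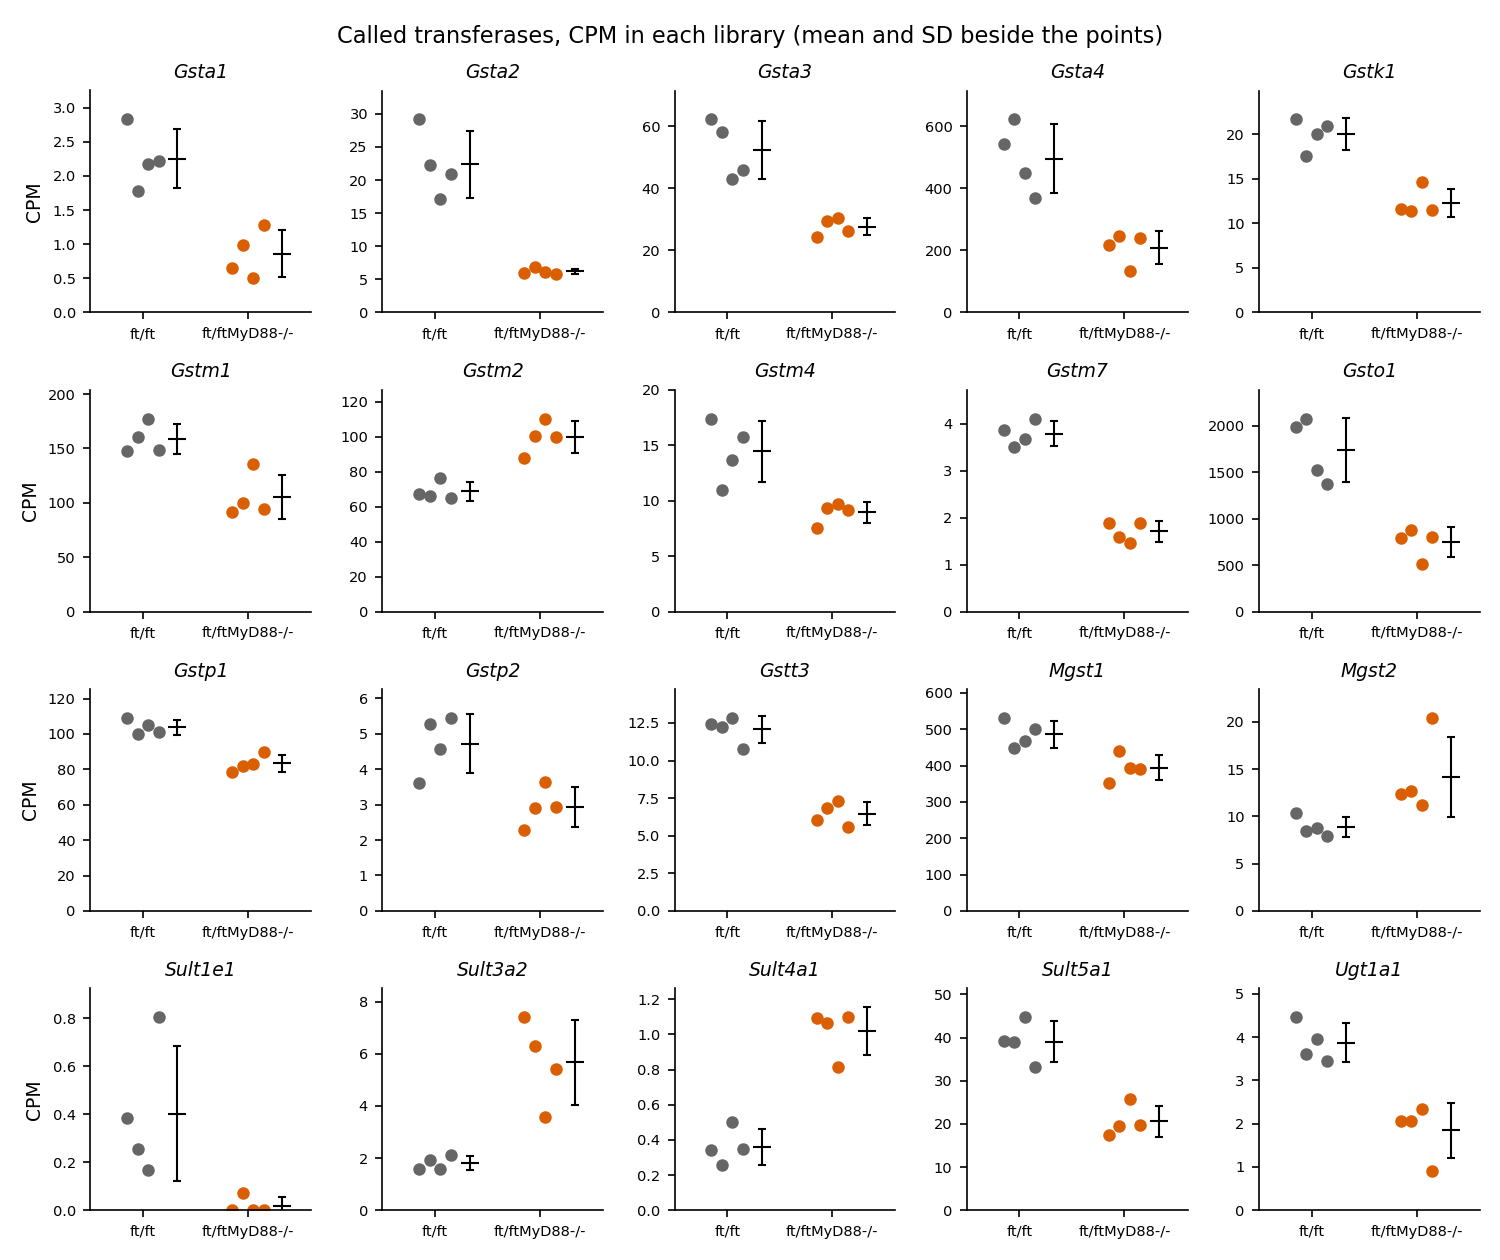
CPM of the 20 called transferases in each library, replicates 1 to 4 from left to right within a group (grey, ft/ft; orange, ft/ftMyD88-/-), with the group mean and SD beside the points; each y axis starts at 0. In 19 of the 20 panels the groups do not overlap, *Gstp2* being the exception.

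UDP-glycosyltransferases were low in this skin, and 6 of 7 were not called. *Ugt1a1*, the enzyme that conjugates bilirubin, was at 4.46, 3.60, 3.96 and 3.45 CPM in ft/ft and 2.06, 2.06, 2.35 and 0.915 in ft/ftMyD88-/-. The groups were apart, and the fourth ft/ftMyD88-/- library was lowest (-1.04, SE 0.244, edgeR adjusted p = 0.00961). *Ugt1a7c*, which conjugates phenols, was at 4.59, 4.91, 5.19 and 3.57 CPM and at 4.95, 6.61, 5.21 and 4.88 CPM, with overlap (0.25, 95% interval -0.11 to 0.62, adjusted p = 0.306). The *Ugt1a* genes are made from 1 locus on chromosome 1 by joining different first exons to the same later exons, and only 385 of 2224 exon bases of *Ugt1a1* and 1915 of 4219 of *Ugt1a7c* belong to no other gene. Reads in the common exons do not tell these genes apart, and the summed *Ugt1a* row, 9.52 ± 0.707 and 7.95 ± 1.17 CPM, did not pass the test (-0.25, SE 0.134, adjusted p = 0.193).

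*Ugt3a2*, of a group that prefers sugars other than glucuronic acid, was at 0.472, 0.364, 0.223 and 0.537 CPM in ft/ft and 0.482, 0.331, 0.476 and 0.305 in ft/ftMyD88-/-. These levels were near those of a few counts and overlapped (-0.01, 95% interval -0.82 to 0.80, edgeR adjusted p = 0.990). *Ugt8a*, which adds galactose to ceramide, was at 1.89, 3.64, 2.51 and 3.34 CPM and at 1.62, 2.28, 2.59 and 1.22 CPM, again with overlap (-0.54, 95% interval -1.13 to 0.04, adjusted p = 0.167). *Ugt1a6b* was at 0.853 ± 0.374 and 0.425 ± 0.0620 CPM and just missed the threshold (adjusted p = 0.0551). *Ugt1a6a* (0.234 ± 0.0941 and 0.269 ± 0.0661 CPM) and *Ugt3a1* (0.190 ± 0.0851 and 0.364 ± 0.200 CPM) were near the floor of counting, which was 0.102 to 0.183 CPM for 3 counts.

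Among the sulfotransferases the calls went both ways. *Sult5a1* was lower, at 39.3, 39.1, 44.7 and 33.2 CPM in ft/ft and 17.4, 19.5, 25.7 and 19.8 in ft/ftMyD88-/-, fully apart (-0.92, SE 0.131, edgeR adjusted p = 0.000612). *Sult1e1*, which inactivates estrogens by sulfation, had 9, 7, 3 and 21 counts in the ft/ft libraries and 0, 2, 0 and 0 counts in the ft/ftMyD88-/- libraries. All ft/ftMyD88-/- libraries were thus at or under 3 counts, and ft/ft replicate 3 was at 3 counts as well. The ft/ft mean, 0.403 ± 0.283 CPM, was 3.06-fold the mean CPM that 3 counts give in ft/ftMyD88-/-, a ratio that is not a lower bound. The fitted log2 fold change was -4.01 (SE 0.891, adjusted p = 0.00727) and rests on the 2 counts in ft/ftMyD88-/-.

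*Sult3a2* had the largest increase on the log2 scale among the members, from 1.59, 1.93, 1.56 and 2.11 CPM in ft/ft to 7.41, 6.28, 3.57 and 5.43 in ft/ftMyD88-/-. Every ft/ftMyD88-/- library was above every ft/ft library (1.65, SE 0.231, edgeR adjusted p = 0.000560), a level 3.13-fold higher. *Sult3a2* shared 7.72% of its 50-base stretches with *Sult3a1*, its copy. *Sult4a1*, best known from brain, was at 0.343, 0.255, 0.502 and 0.345 CPM and at 1.10, 1.07, 0.817 and 1.10 CPM, apart but low (1.51, SE 0.301, adjusted p = 0.00419).

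*Sult1c1* was named after its values were seen, because its libraries did not overlap although it was not called. It was at 1.41, 6.00, 4.13 and 2.53 CPM in ft/ft and 6.35, 6.50, 10.0 and 8.66 in ft/ftMyD88-/- (1.16, SE 0.378, edgeR adjusted p = 0.0537). DESeq2 and limma voom both called it higher.

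*Sult2b1* and *Sult1a1* were not called. *Sult2b1*, which makes the cholesterol sulfate of the epidermal barrier, was at 51.3, 54.5, 39.1 and 46.3 CPM in ft/ft and 61.8, 53.6, 50.2 and 68.0 in ft/ftMyD88-/-. The groups overlapped (0.29, 95% interval 0.02 to 0.55, edgeR adjusted p = 0.109). Scaled by library size alone, *Sult2b1* was called higher (edgeR adjusted p = 0.0112). *Sult1a1*, a phenol sulfotransferase, was at 23.5, 21.3, 20.5 and 29.3 CPM and at 14.8, 18.6, 23.3 and 14.4 CPM (-0.41, 95% interval -0.77 to -0.05, adjusted p = 0.0942). The third ft/ftMyD88-/- library lay among ft/ft, and without it the adjusted p was 0.0233. *Sult6b1* had a mean of 0.0701 CPM in ft/ft and 0.0652 in ft/ftMyD88-/-, with no count in 3 of the 8 libraries. Over all 20 members not called, the log2 fold change ran from -1.01 to 1.16, with 12 below 0 and 8 above it.

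The genes around the transferases were examined as lists chosen by function. For all list counts below, 10.9% of all genes tested were higher and 12.3% lower, or 22.7% and 6.48% with library-size scaling. The lists are small, and their counts were not tested against these shares. Of 15 genes of glutathione supply and turnover 4 were higher and 1 was lower. *Gclc*, the catalytic subunit of the rate-limiting enzyme of glutathione synthesis, went from 42.2 ± 2.23 to 64.7 ± 13.03 CPM (0.62, SE 0.124, edgeR adjusted p = 0.00443), and *Slc7a11*, the cystine importer, from 9.10 ± 2.65 to 20.7 ± 7.36 (1.18, SE 0.278, adjusted p = 0.0151). *Dpep1*, a dipeptidase of glutathione breakdown, was also higher (36.8 ± 6.25 and 58.8 ± 3.70 CPM, adjusted p = 0.00186), while the gamma-glutamyltransferase *Ggt6* was lower (78.0 ± 5.53 and 48.4 ± 4.03 CPM, adjusted p = 0.000346). Without ft/ftMyD88-/- replicate 1 the list had 4 higher and 3 lower, and without ft/ft replicate 1 it had 3 higher and 2 lower. Its summed level overlapped between the groups, at 681 to 723 and 607 to 846 CPM.

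Of 6 genes of UDP-glucuronic acid supply and removal only *Slc35d1*, a transporter of UDP-sugars, was called, and it was higher (7.89 ± 0.908 and 11.2 ± 1.79 CPM, edgeR adjusted p = 0.0247). That call was lost without ft/ft replicate 3 or 4 or ft/ftMyD88-/- replicate 2 or 3 (adjusted p up to 0.0705), and library-size scaling called 2 of the 6 higher. Of 13 genes of sulfate donor supply and removal 3 were lower and 1 was higher. *Papss1*, which makes PAPS, went from 162 ± 7.01 to 124 ± 2.01 CPM (-0.39, SE 0.0749, adjusted p = 0.00357), the sulfatases *Arsa* (38.7 ± 0.714 and 24.2 ± 4.15 CPM, adjusted p = 0.00163) and *Arsb* (17.3 ± 2.30 and 12.3 ± 1.84 CPM, adjusted p = 0.0230) were lower, and *Slc35b3*, which carries PAPS into the Golgi, was higher (6.12 ± 0.835 and 8.54 ± 0.492 CPM, adjusted p = 0.0227). The call of *Slc35b3* was lost without ft/ft replicate 2, 3 or 4 (adjusted p up to 0.0572), that of *Arsb* without ft/ft replicate 3 or 4 or ft/ftMyD88-/- replicate 1 or 2 (up to 0.0799), and library-size scaling gave 2 higher and 2 lower. The list summed to 634 to 699 CPM in ft/ft and 549 to 580 CPM in ft/ftMyD88-/-, without overlap.

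Of 9 efflux pumps for conjugates 4 were lower at an edgeR adjusted p under 0.05 and 5 were not called. *Abcc1*, a pump for glutathione conjugates, was at 154 ± 14.9 and 111 ± 9.76 CPM (-0.48, SE 0.0967, adjusted p = 0.00446). *Abcc4* was at 78.4 ± 10.4 and 49.5 ± 4.82 CPM (-0.66, adjusted p = 0.00137), *Abcc5* at 26.7 ± 1.75 and 19.8 ± 2.96 (adjusted p = 0.0190, and 0.153 with library-size scaling) and *Abcc6* at 0.655 ± 0.155 and 0.207 ± 0.0707 (adjusted p = 0.00989). Most of these pumps also carry substrates that are not phase II conjugates.

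Of 12 enzymes of other conjugations 2 were higher, the methyltransferases *Gnmt* (3.28 ± 0.654 and 21.6 ± 10.6 CPM, 2.72, SE 0.407, edgeR adjusted p = 0.00289) and *Inmt* (3.25 ± 1.14 and 6.38 ± 1.95 CPM, adjusted p = 0.0289). The call of *Inmt* was lost in 6 of the 8 fits that left out 1 library, those without ft/ft replicate 1, 2 or 3 or ft/ftMyD88-/- replicate 2, 3 or 4 (adjusted p up to 0.0849). Of 11 further proteins with a glutathione transferase fold or of the MAPEG membrane family 2 were lower, *Clic3* (94.0 ± 8.36 and 54.9 ± 1.56 CPM, adjusted p = 0.000141) and *Clic5* (51.3 ± 2.99 and 35.9 ± 1.97 CPM, adjusted p = 0.00113), both known as intracellular channel proteins rather than as detoxifying enzymes. Higher calls in that list numbered 3 with DESeq2, 5 with library-size scaling and 3 without ft/ftMyD88-/- replicate 1.

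Of 20 NRF2 targets and regulators 3 were higher and 4 were lower, and with library-size scaling 7 were higher and 1 was lower. *Gpx2*, a glutathione peroxidase (21.9 ± 2.34 and 36.1 ± 7.34 CPM, edgeR adjusted p = 0.00486), and *Cbr3*, a carbonyl reductase (51.7 ± 3.71 and 78.0 ± 15.3 CPM, adjusted p = 0.00542), were higher, while *Ephx1*, the microsomal epoxide hydrolase (125 ± 12.0 and 66.4 ± 9.60 CPM, -0.92, adjusted p = 0.000229), and *Me1*, which makes NADPH (429 ± 28.9 and 313 ± 29.4 CPM, adjusted p = 0.00555), were lower. *Nfe2l2*, which encodes NRF2 itself, was at 81.2 ± 7.42 and 77.5 ± 4.27 CPM (adjusted p = 0.624).

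A list of 17 genes for sensing xenobiotics or lipids held receptors and also *Arnt*, *Ahrr*, *Tiparp*, *Cyp1a1* and *Cyp1b1*, which are not such receptors. In it 5 were lower and 2, *Ppard* and *Tiparp*, were higher. With library-size scaling 1 was lower and 3 were higher. Lower calls numbered 3 without ft/ft replicate 3 or ft/ftMyD88-/- replicate 1 and 2 without ft/ftMyD88-/- replicate 4. Higher calls numbered 0 without ft/ft replicate 3, where *Ppard* was at an adjusted p of 0.0505 and *Tiparp* also missed the threshold, and 1 without ft/ft replicate 2 or 4 or ft/ftMyD88-/- replicate 1 or 4. The lower ones included *Rxra*, the common partner of many of the receptors (387 ± 15.3 and 286 ± 21.1 CPM, -0.43, SE 0.0863, edgeR adjusted p = 0.00412). Also lower were *Ppara* (19.5 ± 2.94 and 13.3 ± 1.39 CPM, adjusted p = 0.00979) and *Nr1h2*, a sterol sensor (97.9 ± 2.72 and 79.5 ± 5.74 CPM, adjusted p = 0.0179). *Ppard* was higher (58.1 ± 11.6 and 83.2 ± 9.38 CPM, adjusted p = 0.0160). *Ahr*, the receptor of the xenobiotic response element, was at 57.6 ± 3.27 and 43.9 ± 6.57 CPM (adjusted p = 0.0197, and 0.179 with library-size scaling).

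**Figure D5:**
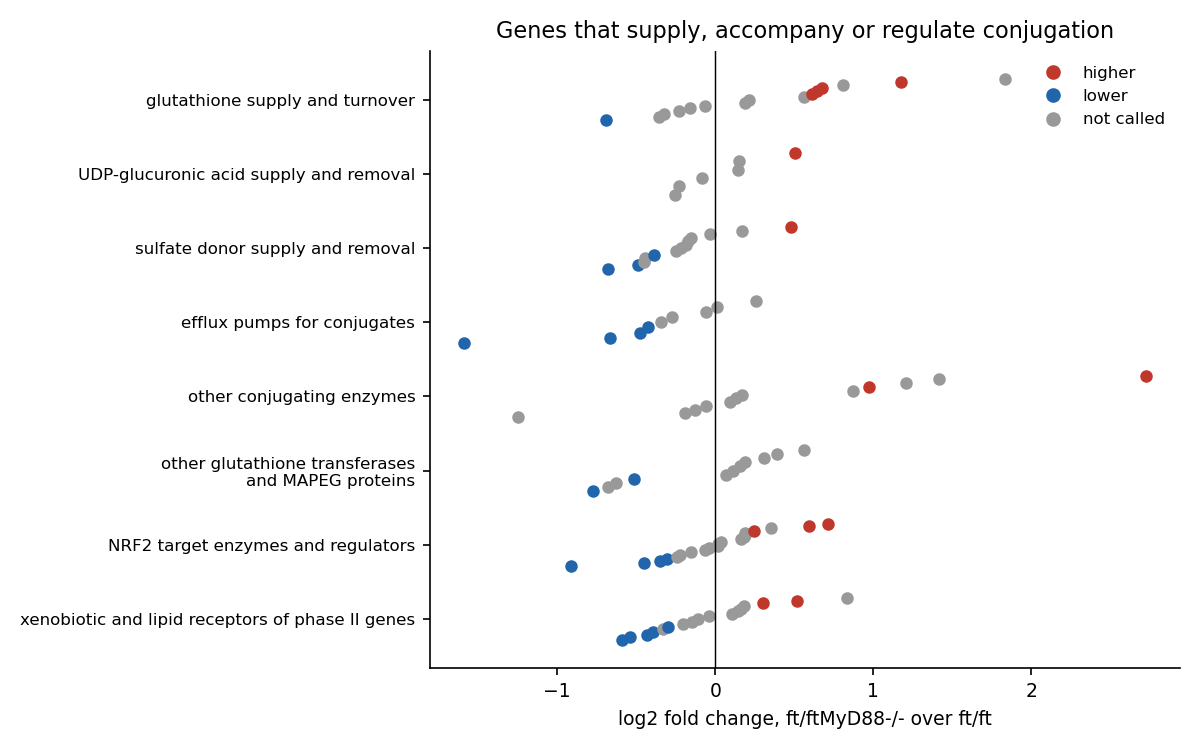
Log2 fold change, ft/ftMyD88-/- over ft/ft (x axis), of each tested gene in 8 functional lists (y axis, points shifted vertically only to keep them apart), coloured by the edgeR call. Glutathione supply has 4 higher and 1 lower of 15, efflux pumps 4 lower of 9 and the NRF2 list 3 higher and 4 lower of 20. The list of receptors with related genes has 2 higher and 5 lower of 17. Of all genes tested 10.9% were higher and 12.3% lower.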

How the data were processed

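The authors deposited raw counts per gene, made from periocular skin libraries by polyA selection, alignment to GRCm38.p6 (HISAT, TopHat2) and counting by HTSeq's default mode, which drops reads that fit several genes. The labels of these samples instead name total RNA, a fixed-tissue protocol and Cell Ranger. Tool versions, the annotation release and strandedness are not given in the sources used here. The quasi-likelihood test of edgeR 4.0.16 (R 4.3.3, TMM scaling, no covariate, two-sided) was run on genes with at least 10 counts over 8 libraries, with Benjamini-Hochberg adjustment over 20454 genes and a threshold of 0.05. The study describes 4 mice a group. Replicate libraries differed by far more than counting noise (lowest chi-square over its degrees of freedom, 15.1). On simulated data the fit called 196 of 200 genes changed by a log2 fold of 2, and 11 unchanged genes of 20156 tested. Only changes of that size, in genes above a low count, were simulated, so recovery of smaller changes is not shown. CPM used TMM-scaled totals. Intervals are 95%. A count of 0 allows up to 3 counts, and reads without molecular identifiers give counting error only. Exon lengths, gene overlaps and shared 50-base stretches were taken from GENCODE M21 transcripts, gene positions from RefSeq.

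Members, gene lists and ratios were chosen with earlier results of these data known. Named were all called members, the member with the highest CPM of each subfamily, and up to 4 called genes per list. *Sult1c1*, *Gstm5*, *Nfe2l2*, *Ahr*, *Tiparp*, *Tmem79*, *Hp*, the low members and the ratios were named after their values were seen. Alternatives were DESeq2 1.42.0, limma 3.58.1 voom, RLE or library-size scaling, filterByExpr, no filter, summed subfamilies, a block on replicate numbers, leaving out single libraries, and stricter thresholds.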

Additional observations from a re-analysis of the deposited data

Results flagged for a closer look

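A library far from the other 3 of its group was looked for in each of the 80 sets of 4 libraries, and 6 were found. Chance flags about 1 in 20 sets. *Mgst2* was at 20.4 CPM in ft/ftMyD88-/- replicate 4 and at 11.2 to 12.6 CPM in the other libraries of that group. *Gstk1* was at 14.6 CPM in ft/ftMyD88-/- replicate 3, where the others were at 11.4 to 11.6 CPM. *Sult4a1* was at 0.817 CPM in ft/ftMyD88-/- replicate 3 beside 1.07 to 1.10 CPM, and *Ugt1a6a* at 0.170 CPM in the same library beside 0.294 to 0.307 CPM. *Gstt1* was at 12.3 CPM in ft/ft replicate 2 beside 15.3 to 15.6 CPM. *Sult1e1* was at 0.0735 CPM in ft/ftMyD88-/- replicate 2, which is 2 counts, and at 0 in the others of its group.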

How the results depend on the processing

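The count of lower members was 16 and that of higher members 4. Where the size of the log2 fold change also had to reach 1 they were 7 and 2, and scaled by library size alone 13 and 7. Leaving out each library in turn gave 14 to 17 lower and 3 to 5 higher. Library-size scaling moved the median log2 fold change of all genes from 0.01 to 0.19 and their calls from 2239 higher and 2525 lower to 4638 and 1326. It ended the calls of *Gstp1*, *Gstp2* and *Mgst1* and added *Mgst3*, *Sult1c1* and *Sult2b1* as higher. The TMM factors, which library-size scaling leaves out, were 0.922 to 0.954 in ft/ft and 1.04 to 1.09 in ft/ftMyD88-/-, without overlap. Why they differ between the groups was not tested. Summing subfamilies before the fit turned *Gstm2* to -0.19 and *Ugt1a7c* to -0.25, since the sum follows other genes of the row, and ended the calls of *Gstm1*, *Gstm4*, *Gstm7*, *Gstt3* and *Ugt1a1*. Of the members not called, *Gstt1* changed sign with library-size scaling (0.14) and ranged from -0.18 to 0.022 without one library, *Gstz1* changed sign with library-size scaling (0.046), and *Sult6b1* ranged from -0.82 to 0.047 without one library. *Ugt3a2*, near 0, was at 0.0046 with DESeq2, 0.020 with limma voom, 0.0041 with RLE scaling, 0.17 with library-size scaling, 0.00098 with filterByExpr and -0.18 to 0.17 without one library. The replicate numbers did not pair the samples, as same-numbered libraries correlated at -0.33, 0.04, 0.07 and -0.06 in their deviations from the group means. With the replicate block 15 members were lower and 5 higher, *Ugt3a2* was at 0.020, *Mgst1* was lost (adjusted p = 0.0998) and *Sult1c1* gained. *Sult1e1* was not tested with filterByExpr, for lack of counts. DESeq2, limma voom, RLE scaling and no filter each kept all 20 calls. Of 240 counts of called genes in the 8 pathway lists under these alternatives, 36 moved by over 1.5 times.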
